A study of Mus musculus with 6 samples.

Results

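NRF2, the transcription factor encoded by Nfe2l2, drives a set of genes that detoxify oxidants and electrophiles, and 10 genes of this pathway were described here among the 54532 genes of the deposited table. They were taken as the rows whose gene name equalled Nfe2l2, Keap1, Nqo1, Akr1c12, Akr1c13, Gclc, Gclm, Txnrd1, Srxn1 or Hmox1, and each name matched 1 row. Of the 10, 9 had a mean of at least 0.5 FPKM over the 6 samples and entered the fit across 12654 genes, while Srxn1 lay under this limit. FPKM (fragments per kilobase) is a read count scaled to gene length and to a total for each library. The genes were chosen with the difference between the groups in view, so their differences are given as a description and no test of them is offered.

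The data came from RNA sequencing of mouse CD8 T cells, the cytotoxic T cell lineage, purified from spleen and lymph nodes and activated in culture for 3 days with beads carrying antibodies to CD3 and CD28. The 2 groups were Ptpmt1 knockout (KO, n = 3) and wild type (WT, n = 3), and both received the same activation. PTPMT1 is a mitochondrial phosphatase needed to make cardiolipin, a phospholipid found in the inner membrane of mitochondria. The labels used here do not give the strain, age or sex of the mice, how Ptpmt1 was deleted or in which cells, or whether replicates were separate animals, so the spread between samples may be partly technical.

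Without stress, KEAP1 holds NRF2 in the cytoplasm and hands it to a CUL3 ubiquitin ligase for destruction. Oxidants and electrophiles modify cysteines of KEAP1, NRF2 escapes, pairs with small MAF proteins in the nucleus and binds antioxidant response elements, short DNA motifs near its target genes. Much of this control acts on the NRF2 protein, which RNA sequencing does not see. Among the targets are enzymes that make glutathione, recycle thioredoxin, reduce quinones and carbonyls and degrade heme. In mouse T cells, glutathione made with the product of Gclc is known to be needed for growth after activation.

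Ptpmt1 itself was at 1.0004, 1.58 and 1.5 FPKM in KO replicates 1 to 3, against 3.75, 3.84 and 4.13 FPKM in WT replicates 1 to 3, so every library fitted its label in direction (log2 fold change -1.26, SE 0.20; limma adjusted p = 0.0884). Reads per gene, rebuilt from FPKM and gene length, totalled 16462539 to 16819913 in the KO libraries and 14932604 to 16453314 in the WT libraries. The totals by which the deposited FPKM had been scaled differed from these. They were 15741484, 13123695 and 18047371 in KO replicates 1 to 3 and 15356639 to 17560631 in WT. For equal reads, FPKM was therefore highest in KO replicate 2 and lowest in KO replicate 3. KO replicate 3 stood apart: it had 0 reads of Xist and 1837 reads of the Y-linked Ddx3y, whereas Xist had 3513 reads or more and Ddx3y had 0 in each of the remaining 5. By these genes KO replicate 3 had the pattern of male cells and the remaining 5 that of female cells, all WT libraries included. Results are therefore given below with and without KO replicate 3. Reads of mitochondrial genes made up 4.40%, 7.53% and 2.38% of KO libraries 1 to 3 and 3.38% to 4.76% of WT libraries. The summed FPKM of Cd3d, Cd3e, Cd8a and Cd8b1 was 620.5 to 1156 in KO and 965.0 to 1300 in WT. Of these, Cd3e and Cd8a were lower in every KO sample than in any WT sample, whereas Cd3d and Cd8b1 overlapped. In KO, Cd3e was at 27.1, 20.4 and 31.9 FPKM and Cd8a at 135.1, 108.8 and 145.0 FPKM. WT samples had 38.5, 42.7 and 37.7 FPKM of Cd3e and 181.7, 195.5 and 219.3 FPKM of Cd8a. Cd4 and Foxp3 together reached 0.305 to 0.554 in KO and 0.868 to 2.02 in WT. The summed FPKM of 5 mast cell and basophil markers was 16.5, 18.4 and 81.7 in KO replicates 1 to 3 and 7.08, 7.31 and 19.6 in WT replicates 1 to 3. That of 3 gamma-delta T cell markers was 9.33, 15.4 and 52.3 in KO and 9.01, 9.13 and 21.1 in WT. Replicate 3 was thus the highest of its group for both lists in both genotypes. The same held for Cd4 with Foxp3 and for the summed markers of B cells, neutrophils and dendritic cells. Replicate 3 was at 4.40 (KO) and 5.49 (WT) for B cells, 10.2 and 5.94 for neutrophils, and 1.25 and 0.792 for dendritic cells. It did not hold for the CD8 T cell, NK cell, macrophage and erythroid lists. In bulk samples, fewer cells of a type and less RNA per cell cannot be told apart.

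Of the 9 genes tested, Nqo1, Akr1c12, Akr1c13, Hmox1 and Gclm were higher in every KO sample than in any WT sample, and the NRF2 and KEAP1 genes had overlapping groups. The log2 fold changes of the fit, on the log2(FPKM + 0.5) scale, were above 0 for 8 of the 9, where the mean was higher in KO for 52.4% of all genes tested, with a median of 0.56 against 0.03 over all genes tested. All 3 KO values thus lay above all 3 WT values for 5 of the 9, where 14.5% of all genes tested showed this. Both shares use the deposited scaling, and as a share of rebuilt reads the Gclm groups overlapped. At a limma adjusted p under 0.05, 0 of the 9 members were called, beside 0.0395% of all genes tested. Without KO replicate 3, 3 of the 9 were called, namely Nqo1, Akr1c12 and Akr1c13, beside 13.7% of all genes. Since the members were chosen on this contrast, nothing is read from these counts.

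**Figure D1:**
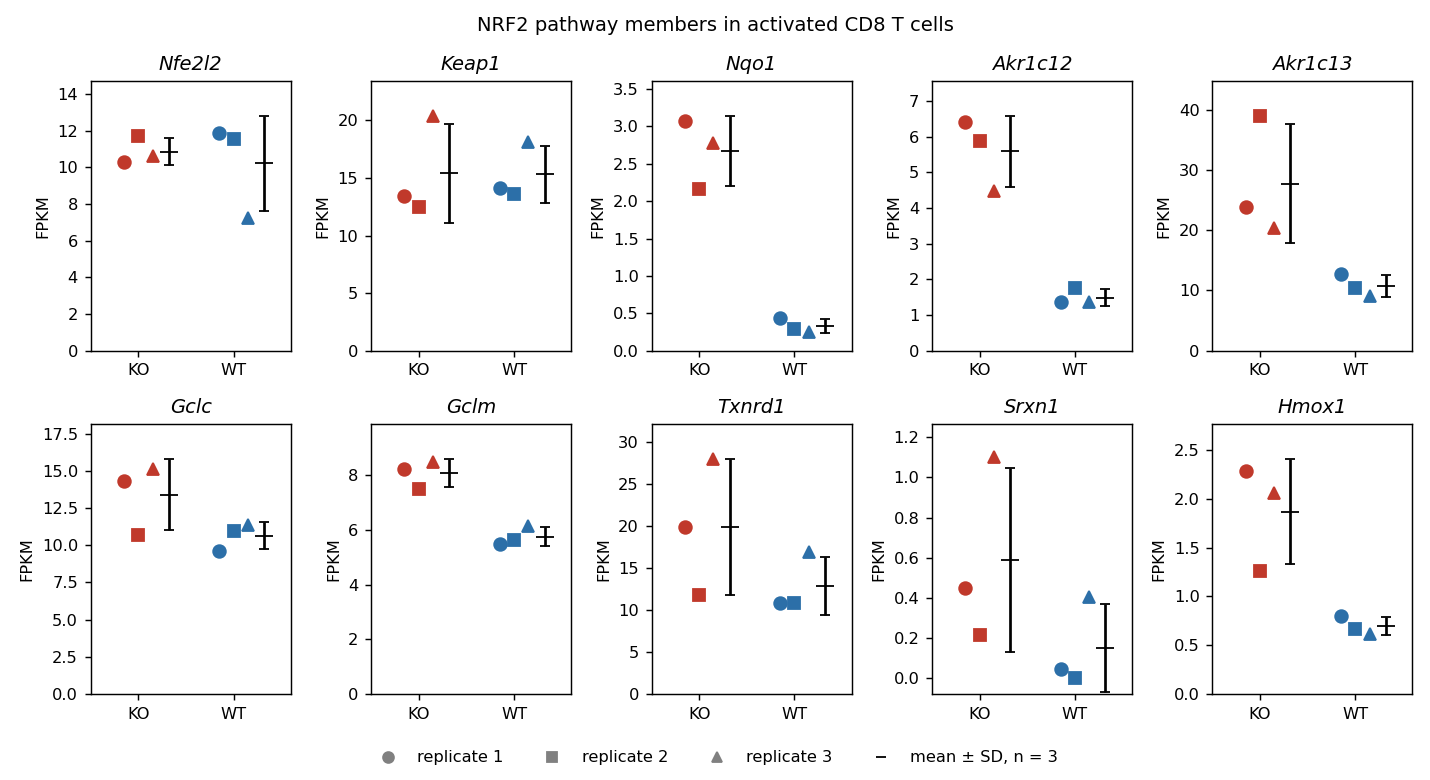
FPKM (vertical axis, linear, a separate scale for each gene) of the 10 NRF2 pathway genes in the 3 KO (red) and 3 WT (blue) samples, with marker shape giving the replicate and black bars the mean and SD (n = 3). Nqo1 lies between 2.16 and 3.07 in KO and between 0.257 and 0.433 in WT, whereas Nfe2l2 and Keap1 values of the groups overlap.

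The regulators come first. Nfe2l2 (ENSMUSG00000015839, mm10 chromosome 2, 75675513 to 75704641, minus strand) was at 10.3, 11.7 and 10.6 FPKM in KO replicates 1 to 3, against 11.9, 11.5 and 7.25 FPKM in WT replicates 1 to 3. The groups overlapped, and the only value set apart was the low one of WT replicate 3. The means were 10.9 ± 0.760 in KO and 10.2 ± 2.58 in WT (SD, n = 3 each), and the log2 fold change of 0.11 (SE 0.22) became -0.10 without WT replicate 3.

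Keap1 (ENSMUSG00000003308, chromosome 9, 21229730 to 21239361, minus strand) was at 13.4, 12.5 and 20.4 FPKM in KO, against 14.2, 13.6 and 18.2 FPKM in WT. The groups overlapped, and replicate 3 was the highest of each. The log2 fold change was -0.01 (SE 0.23), and its sign changed when KO replicate 1, KO replicate 2 or WT replicate 3 was left out. The antisense transcript Gm16754 overlaps 510 of the 4693 exonic bases of Keap1, and the strand setting of the authors' counting is not given in the sources used here, so reads of the 2 transcripts may be mixed.

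Nqo1 (ENSMUSG00000003849, chromosome 8, 107388225 to 107403206, minus strand) encodes a quinone reductase and is a widely used reporter of NRF2 activity. It was at 3.07, 2.16 and 2.78 FPKM in KO, against 0.433, 0.294 and 0.257 FPKM in WT. Every KO value was above every WT value, and the lowest KO value was several times the highest WT value. The counts behind these values were small. Nqo1 had 75, 44 and 78 reads in KO and 11, 7 and 7 reads in WT, with exact Poisson 95% intervals of 32 to 59.1 for the lowest KO library and 5.49 to 19.7 for the highest WT library. Such intervals cover counting error only. The mean FPKM was 8.15 times higher in KO, at 2.67 ± 0.465 in KO and 0.328 ± 0.0928 in WT (SD, n = 3 each), and it was 7.98 times higher without KO replicate 3. The pseudocount holds the log2 fold change of so low a gene down: it was 1.93 (SE 0.24) with a pseudocount of 0.5, 1.46 with 1, and 2.70 with 0.1.

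Akr1c12 and Akr1c13 encode neighbouring aldo-keto reductases, enzymes that reduce carbonyls and steroids with NADPH. Akr1c12 (ENSMUSG00000021211, chromosome 13, 4268176 to 4279433, minus strand) was at 6.40, 5.86 and 4.48 FPKM in KO, against 1.36, 1.76 and 1.35 FPKM in WT. KO and WT did not overlap, KO replicate 3 was the lowest of the KO samples, and reads numbered 127, 97 and 102 in KO and 28, 34 and 30 in WT. The mean FPKM was 3.75 times higher in KO (log2 fold change 1.61, SE 0.20) and 4.12 times higher without KO replicate 3.

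Akr1c13 (ENSMUSG00000021213, chromosome 13, 4191150 to 4205596, plus strand) was the more abundant of the pair, at 23.8, 38.9 and 20.3 FPKM in KO, against 12.6, 10.4 and 9.09 FPKM in WT. Every KO value was above every WT value, with KO replicate 2 far above the other KO samples. Reads differed less, at 538, 732 and 525 in KO replicates 1 to 3, since the scaling total of KO replicate 2 was the lowest. The mean was 27.7 ± 9.88 FPKM in KO and 10.7 ± 1.80 FPKM in WT (SD, n = 3 each), 2.58 times higher in KO, and 2.06 times higher without KO replicate 2. The ratio of Akr1c13 to Akr1c12 FPKM was 3.73, 6.64 and 4.53 in KO and 9.33, 5.92 and 6.71 in WT, so the ranges of this ratio overlapped.

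The pair is shown by sequence because the likeness bears on both the counts and the start regions. The longest annotated transcripts of the pair (GENCODE M21) were 94.6% identical over 1260 aligned bases, and 28.6% of the 50-base stretches of Akr1c12 occurred also in Akr1c13, with 11.5% of the 100-base stretches. How the authors' counting treated reads that fit both genes is not given in the sources used here, so the split between the genes is uncertain, while their summed FPKM was 30.2, 44.8 and 24.8 in KO and 14.0, 12.2 and 10.4 in WT. The windows from 250 bases before to 50 bases after the RefSeq start sites (GRCm38.p6, Akr1c12 at chr13:4279350-4279649 on the minus strand, Akr1c13 at chr13:4190937-4191236 on the plus strand) were 95.9% identical over 296 aligned bases. They are printed 5′ to 3′, with capitals for the bases that differ or have no partner in the alignment.
Akr1c12: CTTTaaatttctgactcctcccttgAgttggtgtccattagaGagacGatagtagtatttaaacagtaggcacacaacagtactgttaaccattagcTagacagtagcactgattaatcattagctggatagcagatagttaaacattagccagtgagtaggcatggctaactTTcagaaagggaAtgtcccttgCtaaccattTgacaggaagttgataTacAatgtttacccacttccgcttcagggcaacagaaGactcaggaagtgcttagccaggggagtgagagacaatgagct
Akr1c13: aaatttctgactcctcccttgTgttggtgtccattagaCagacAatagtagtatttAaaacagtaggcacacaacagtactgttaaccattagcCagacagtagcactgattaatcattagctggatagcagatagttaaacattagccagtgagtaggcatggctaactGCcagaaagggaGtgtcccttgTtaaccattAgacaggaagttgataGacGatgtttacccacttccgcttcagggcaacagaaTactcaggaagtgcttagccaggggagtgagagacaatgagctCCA
Of the aligned bases, 12 differed. Both windows held 1 match to the core of the antioxidant response element, searched as TGACNNNGC or TGAGNNNGC on both strands, and the match was the same in both genes.

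The same core was looked for in all windows of the members, and 8 of the 10 genes, the Akr1c pair included, had at least 1 window in the RefSeq table. At least 1 match was found for 6 of these 8 genes and for 6 of their 10 windows, namely in Akr1c12, Akr1c13, Nfe2l2, Txnrd1, Srxn1 and Gclm, where 27.8% of all 32851 windows and 30.8% of all 27025 genes held one. In the windows of Nqo1 and Keap1 these letters were absent, which says nothing of sequence outside the window. A match is a description and not a bound site. Srxn1 held 3 matches, more than any other member, and the stretches around the match of the Akr1c pair and 2 of the 3 matches of Srxn1 are given with the core in capitals, on the strand of the gene. In the second Srxn1 stretch the core, TGAGTCAGC, reads on the gene strand and starts 45 bases before the start site, and in the first it lies on the other strand.
Akr1c12, chr13:4279477-4279505: cattagccagTGAGTAGGCatggctaact
Srxn1, chr2:152105356-152105384: tctactgagaGCCGACTCAtcctctctgg
Srxn1, chr2:152105469-152105497: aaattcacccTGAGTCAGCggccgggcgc

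Gclc and Gclm encode the catalytic and the modifier subunit of glutamate-cysteine ligase, the first and rate-limiting enzyme of glutathione synthesis. Gclm (ENSMUSG00000028124, chromosome 3, 122245557 to 122270732, plus strand) was at 8.25, 7.51 and 8.48 FPKM in KO, against 5.49, 5.62 and 6.16 FPKM in WT. As deposited, the groups were apart with narrow spreads, at 8.08 ± 0.508 in KO and 5.76 ± 0.356 in WT (SD, n = 3 each). The ratio was 1.40 and the log2 fold change 0.45 (SE 0.14). The separation depended on the scaling. Gclm had 817, 620 and 963 reads in KO and 566, 543 and 681 reads in WT. KO replicate 2 had 620 of 16819913 rebuilt reads and WT replicate 3 had 681 of 16374530, so as a share of rebuilt reads the groups overlapped. Exons of Gm17494 on the opposite strand and of the pseudogene Gm6061 overlap 296 and 244 of the 6291 exonic bases of Gclm. Of the 50-base stretches of Gclm transcripts, 4.58% occurred also in other genes, Ppia and Gm10123 among them, with 3.09% of the 100-base stretches. How such reads were counted is not given in the sources used here, so some reads of these genes may be mixed.

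Gclc (ENSMUSG00000032350, chromosome 9, 77754535 to 77794485, plus strand) was at 14.4, 10.7 and 15.2 FPKM in KO, against 9.62, 11 and 11.4 FPKM in WT. KO replicates 1 and 3 lay above all WT samples, but KO replicate 2 lay among them. The log2 fold change was 0.31 (SE 0.18). The ratio of Gclc to Gclm FPKM was 1.74, 1.42 and 1.79 in KO and 1.75, 1.95 and 1.84 in WT.

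Txnrd1 and Srxn1 act on the thioredoxin and peroxiredoxin branch. Txnrd1, the cytosolic thioredoxin reductase (ENSMUSG00000020250, chromosome 10, 82833951 to 82897712, plus strand), was at 19.9, 11.8 and 27.9 FPKM in KO, against 10.9, 10.9 and 16.8 FPKM in WT. The groups overlapped, since KO replicate 2 was below WT replicate 3. The log2 fold change of 0.56 (SE 0.33) came to 0.28 when KO replicate 3 was left out and to 0.88 when KO replicate 2 was.

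Srxn1, a sulfiredoxin that repairs over-oxidised peroxiredoxins (ENSMUSG00000032802, chromosome 2, 152105516 to 152111376, plus strand), was near the limit of detection, at 0.451, 0.216 and 1.1 FPKM in KO, against 0.0433, 0 and 0.404 FPKM in WT. These values rest on 20, 8 and 56 reads in KO and 2, 0 and 20 reads in WT. Replicate 3 was the highest of each group and the groups overlapped. In a fit without the limit on low values, its log2 fold change was 0.72 (SE 0.37).

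Hmox1 (ENSMUSG00000005413, chromosome 8, 75093621 to 75100589, plus strand), the inducible heme oxygenase, was at 2.29, 1.26 and 2.06 FPKM in KO, against 0.802, 0.669 and 0.618 FPKM in WT. No KO value overlapped a WT value, with 63, 29 and 65 reads in KO and 23, 18 and 19 reads in WT. The mean was 2.68 times higher in KO (log2 fold change 0.96, SE 0.26) and 2.55 times higher without KO replicate 3. Macrophages are a known source of Hmox1 RNA in spleen. The summed FPKM of 14 macrophage and monocyte markers was 6.92, 1.62 and 5.29 in KO and 6.08, 4.26 and 5.37 in WT. These sums overlapped between the groups, and KO replicate 2 was the lowest of the KO samples for the sum as for Hmox1. Its sum was below every WT sum, whereas its Hmox1 value was above every WT value. Adgre1, a surface marker of mouse macrophages, was at 0.157, 0 and 0.291 FPKM in KO and 0.0377, 0.0201 and 0.0176 FPKM in WT. Vcam1, at 0.0788, 0 and 0.219 FPKM in KO and 0.0275, 0.0147 and 0.0193 FPKM in WT, had a like order in KO. Csf1r, Fcgr1, Cd14 and Spic were also highest in KO replicate 3 and at 0 in KO replicate 2. Itgam was highest in WT replicate 1 and Cd163 in KO replicate 2. All these values were low. Cd68, another marker of the list and at a higher level, was lower in every KO sample than in any WT sample. It was at 1.57, 1.39 and 1.98 FPKM in KO and 2.62, 3.26 and 3.44 FPKM in WT. Of the complement genes typical of tissue macrophages, C1qa and C1qc were at 0 in all 6 samples, and C1qb was at 0.102 FPKM in KO replicate 3 and at 0 in the other samples. The part of such cells in the Hmox1 values was not tested.

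**Figure D2:**
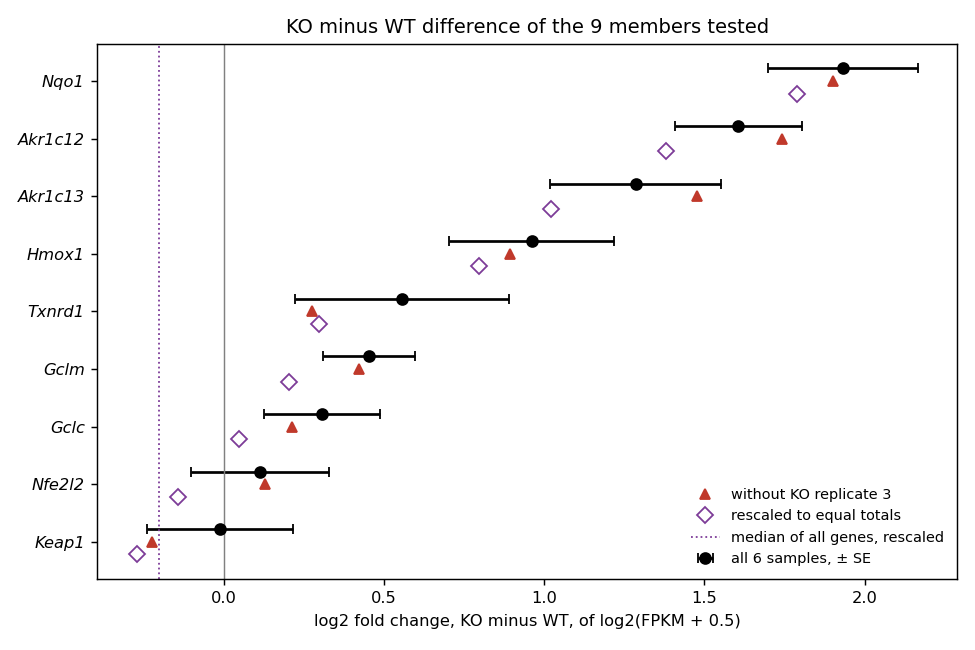
Log2 fold change (KO minus WT, of log2(FPKM + 0.5), horizontal axis) of the 9 members tested, as black points with the SE from all 6 samples, as triangles without KO replicate 3, and as open diamonds after rescaling each sample to the same FPKM total, where the dotted line marks the median of all genes. Nqo1 is at 1.93 and Keap1 at -0.01 with all samples.

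The levels of the 10 genes spanned a wide range. FPKM is scaled to gene length, so levels can be set beside each other within a sample. In KO the means ran from Akr1c13 (27.7 FPKM) through Txnrd1 (19.9), Keap1 (15.4), Gclc (13.4), Nfe2l2 (10.9), Gclm (8.08), Akr1c12 (5.58), Nqo1 (2.67) and Hmox1 (1.87) to Srxn1 (0.589). In WT they ran from Keap1 (15.3 FPKM) through Txnrd1 (12.9), Akr1c13 (10.7), Gclc (10.6), Nfe2l2 (10.2), Gclm (5.76), Akr1c12 (1.49), Hmox1 (0.697) and Nqo1 (0.328) to Srxn1 (0.149). Akr1c13 was thus first in KO, while Keap1 and Txnrd1 were above it in WT, and Nqo1 was above Hmox1 in KO and below it in WT. In WT the neighbours from Keap1 to Nfe2l2 lay within about 1 SD of each other, as did those from Akr1c13 to Keap1 in KO.

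The members did not vary together from library to library. Txnrd1, Keap1, Gclc, Gclm and Srxn1 were highest in replicate 3 and lowest in replicate 2 among the KO samples, and highest in replicate 3 among the WT samples. Nqo1 and Hmox1 shared another order in FPKM, with KO replicate 1 highest, KO replicate 2 lowest of the KO samples and WT replicate 3 lowest of all. Much of this order lay within counting error. KO replicates 1 and 3 had 75 and 78 reads of Nqo1 and 63 and 65 reads of Hmox1. The WT libraries had 11, 7 and 7 reads of Nqo1 and 23, 18 and 19 reads of Hmox1, with overlapping Poisson 95% intervals for each gene. For Akr1c12 and Akr1c13 the lowest KO value in FPKM was in replicate 3. In reads this order was not clear. Akr1c12 had 97 reads in KO replicate 2 and 102 in KO replicate 3, with overlapping Poisson 95% intervals (78.7 to 118 and 83.2 to 124). Akr1c13 had 538 reads in KO replicate 1 and 525 in KO replicate 3. Several marker sums given above, from mast cells, basophils and gamma-delta T cells to B cells, neutrophils and dendritic cells, were also highest in replicate 3 of each group. Their part in these orders was not tested.

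**Figure D3:**
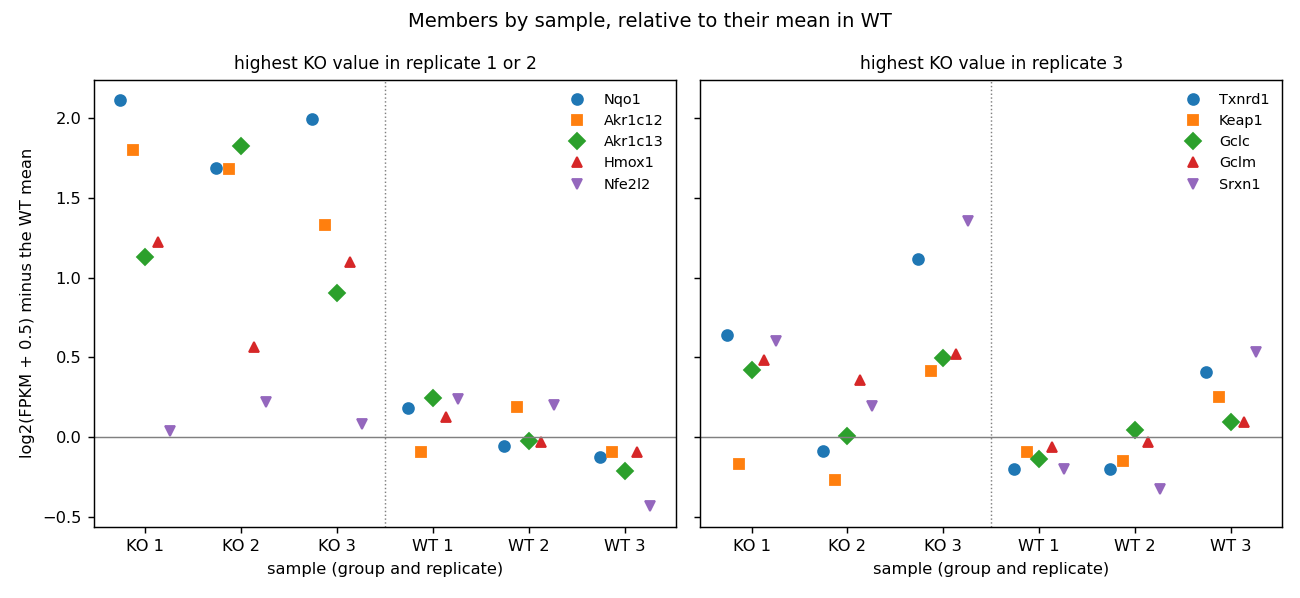
Each point is log2(FPKM + 0.5) of a gene in a sample (horizontal axis, 3 KO then 3 WT samples) minus its mean in WT. The left panel holds the 5 genes whose highest KO value was in replicate 1 or 2, the right panel the 5 whose highest was in replicate 3, among which Txnrd1 and Srxn1 stand out in KO replicate 3.

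The genes whose levels followed Nqo1 most closely over the 6 samples, by Pearson r of log2(FPKM + 0.5), were Gabarapl1 (0.998), Rn7sk (0.995), Seh1l (0.993), Mmgt1 (0.992) and Gls2 (0.992). Gabarapl1, of the autophagy protein family ATG8, was at 17.7, 15.4 and 17.0 FPKM in KO and 8.98, 8.67 and 8.74 FPKM in WT. For Akr1c12 they were Ociad1 (0.997), Siah1b (0.997), Mettl4 (0.997), Dtwd1 (0.994) and Lipt2 (0.993). Lipt2, a mitochondrial enzyme of lipoic acid synthesis, was at 2.79, 2.47 and 2.33 FPKM in KO and 0.404, 0.627 and 0.479 FPKM in WT. The r of Akr1c12 with Nqo1 was 0.963, and with Akr1c13 it was 0.914. Each such r joins points that fall into 2 groups, so it mostly restates the group difference.

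Genes linked to the pathway were examined with a list of 92 other genes, of which 61 passed the limit on low values. The list held genes that act against NRF2, such as Bach1 and Cul3, beside targets and genes of related functions. Counts by direction and the median over the list therefore mix unlike roles, and a place in the list does not make a gene an NRF2 target. By limma, 0 of the 61 were called at an adjusted p under 0.05, and 10 had an unadjusted p under 0.05, 5 higher and 5 lower in KO. That is 16.4% of the list, where 21.8% of all genes tested had such a p, 11.5% higher and 10.2% lower. Limma-voom on rebuilt reads also called 0, and 0.0079% of all genes. The median log2 fold change of the 61 was 0.14, against 0.03 over all genes. The result depended on KO replicate 3. Without it, 8 of the 61 were called, 4 higher and 4 lower, beside 8.12% of all genes called higher and 5.58% called lower.

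Among the regulators and partners of NRF2, 2 of 13 had an unadjusted p under 0.05 and 0 were called. Bach2, a repressor related to the NRF2 competitor BACH1 and known for holding T cells in a quiescent state, was at 4.52, 4.01 and 6.84 FPKM in KO, against 9.01, 10.004 and 7.65 FPKM in WT (log2 fold change -0.76, SE 0.22; limma adjusted p = 0.136, and 0.0344 without KO replicate 3). Bach1, which competes with NRF2 for its motif, was at 2.52, 1.63 and 4.25 FPKM in KO, against 4.80, 4.75 and 3.91 FPKM in WT, and passed without KO replicate 3 (limma adjusted p = 0.249 with all samples and 0.0420 without it). Every KO value of Bach2 was below every WT value, whereas KO replicate 3 of Bach1 lay among the WT values. Pgam5, a mitochondrial phosphatase known to bind KEAP1, was at 9.21, 8.25 and 9.60 FPKM in KO, against 5.35, 5.87 and 7.22 FPKM in WT (limma adjusted p = 0.153). Rbx1, a subunit of the CUL3 ligase, passed without KO replicate 3 (log2 fold change 0.74, limma adjusted p = 0.0375) and was at 30.1, 36.1 and 19.1 FPKM in KO, against 19.2, 18.4 and 20.9 FPKM in WT. Bach1 and Rbx1, as well as Txn1, Prdx1 and Blvra below, were named after their values were seen. Gsr and Slc7a11 below also fall outside the naming rule given with the processing.

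Of the glutathione genes, 2 of 8 had an unadjusted p under 0.05, both higher in KO, and 0 were called. Chac1, which degrades glutathione, was at 1.20, 0.931 and 3.82 FPKM in KO, against 0.149, 0.0796 and 0.278 FPKM in WT (log2 fold change 1.72, SE 0.45; limma adjusted p = 0.118). Its KO values were all above its WT values, with KO replicate 3 the highest. The other gene with an unadjusted p under 0.05 was Gsr, whose groups overlapped (limma adjusted p = 0.178). Gsr was at 31.1, 19.8 and 32.3 FPKM in KO, against 13.6, 13.6 and 21.6 FPKM in WT. Slc7a11, the cystine transporter and a known NRF2 target, lay under the limit on low values, at 0.0548, 0.0219 and 0.486 FPKM in KO and 0, 0 and 0.00818 FPKM in WT, with KO replicate 3 far above the other two KO samples. Of 9 glutathione transferases and exporters tested, only the exporter Abcc5 had such a p, at 3.48, 2.09 and 2.42 FPKM in KO, against 4.79, 5.61 and 4.23 FPKM in WT (log2 fold change -0.78, SE 0.22; limma adjusted p = 0.1275). The KO and WT values of Abcc5 did not overlap.

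The thioredoxin genes held the smallest adjusted p of the list. Txnip, the protein that binds and inhibits thioredoxin, was at 47.9, 60.5 and 40.9 FPKM in KO, against 143.8, 156.4 and 106.0 FPKM in WT (log2 fold change -1.43, SE 0.23; limma adjusted p = 0.0884, and 0.0344 without KO replicate 3). Its groups were well apart. The mitochondrial reductase Txnrd2 was at 3.998, 4.26 and 4.03 FPKM in KO, against 2.54, 2.60 and 3.18 FPKM in WT (limma adjusted p = 0.158). Thioredoxin (Txn1) and the peroxiredoxin Prdx1 passed without KO replicate 3. Txn1 was at 808.7, 937.5 and 411.6 FPKM in KO, against 444.4, 351.7 and 414.4 FPKM in WT, and Prdx1 at 298.0, 489.5 and 114.2 FPKM in KO, against 127.6, 97.0 and 147.9 FPKM in WT. In both genes KO replicate 3 lay among the WT samples, the reverse of its place for Txnrd1.

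Of the 5 genes of NADPH supply and the 7 of heme and iron, 0 had an unadjusted p under 0.05. The pentose phosphate enzyme Tkt averaged 81.7 FPKM in KO and 64.2 FPKM in WT (limma adjusted p = 0.313), and Taldo1 52.5 in KO and 53.3 in WT. The ferritin genes averaged 358 FPKM in KO and 322 FPKM in WT for Fth1, and 151 in KO and 142 in WT for Ftl1. Biliverdin reductase Blvra, the step after heme oxygenase, passed without KO replicate 3 (log2 fold change 0.80, limma adjusted p = 0.0377) and was at 24.1, 30.7 and 14.6 FPKM in KO, against 15.7, 14.1 and 16.4 FPKM in WT.

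Among 11 other genes of quinone, carbonyl and drug oxidation, 2 had an unadjusted p under 0.05 and both were lower in KO. Aldh2, the mitochondrial aldehyde dehydrogenase, was at 6.96, 4.94 and 6.23 FPKM in KO, against 21.9, 21.5 and 10.7 FPKM in WT (log2 fold change -1.44, SE 0.30; limma adjusted p = 0.0970, and 0.0459 without KO replicate 3). The epoxide hydrolase Ephx1 was at 5.90, 7.42 and 5.80 FPKM in KO, against 14.1, 18.7 and 8.21 FPKM in WT (limma adjusted p = 0.143). For both genes the KO and WT values did not overlap, and WT replicate 3 was the lowest WT sample. Of 7 other genes of the Akr1c family, 1 was tested. Akr1c18, a steroid dehydrogenase, was at 0.895, 0.379 and 1.97 FPKM in KO, against 0, 0 and 0.519 FPKM in WT (limma adjusted p = 0.223). It too was highest in replicate 3 of each group, like the summed markers of mast cells and basophils and of several other cell types. Their part in this was not tested.

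**Figure D4:**
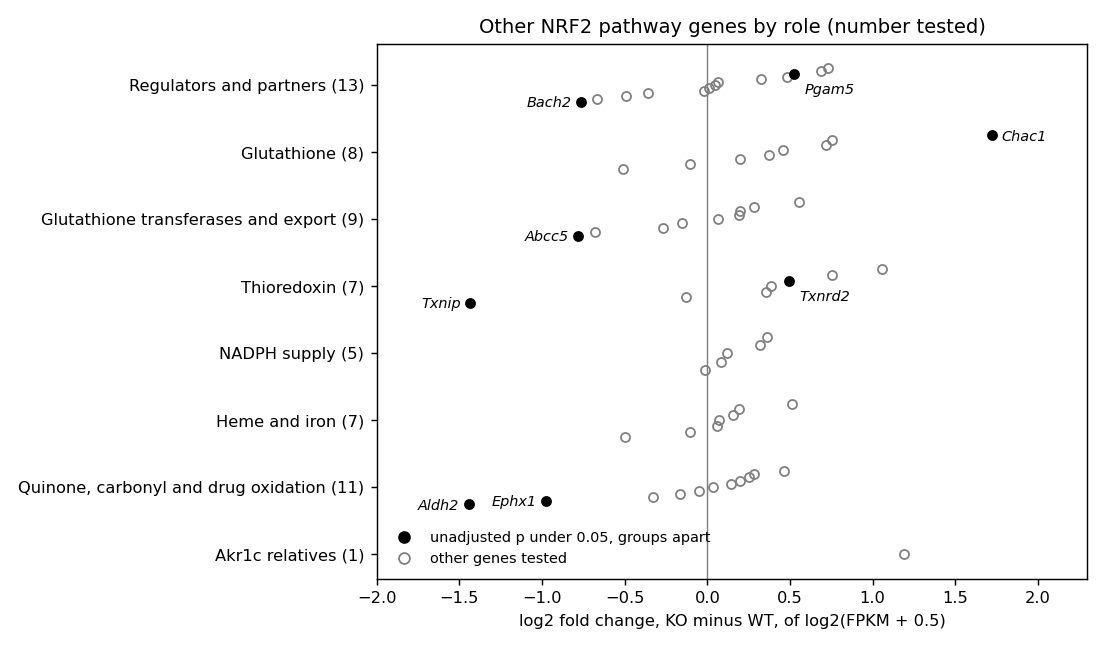
Log2 fold change (KO minus WT, of log2(FPKM + 0.5), horizontal axis) of the 61 other pathway genes tested, by role, with the number tested in brackets. Filled points mark genes with an unadjusted limma p under 0.05 and groups that did not overlap, from Txnip and Aldh2 on the left to Chac1 on the right.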

How the data were processed

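The deposited table holds 1 FPKM value per gene and sample, made by the authors, and the gene length in bases. The submitters' processing notes list mm10 as the build and name featureCounts 1.5.0-p3, HISAT2 2.0.5, Trim Galore and DESeq2, without saying what each did. FPKM times length fell on whole multiples of 1 step per sample, within 0.05, for at least 99.99% of values above 0, which gave the rebuilt reads. Sample groups came from the titles. The fit used log2(FPKM + 0.5) of the 12654 genes whose mean reached 0.5 FPKM. Genotype was tested with limma 3.58.1 (R 4.3.3; eBayes with a mean-variance trend, 2-sided, Benjamini-Hochberg over all genes). The pseudocount makes fold changes of low genes look smaller than they are. The members and lists were chosen with earlier results of these data known. From the wider list, up to 4 genes per role with an unadjusted p under 0.05 and groups apart were named by rule, or else the 2 of highest level. Positions are those of GENCODE M21 (mm10), and start regions those of RefSeq (GRCm38.p6). Alternatives covered the pseudocount, the filter, the scaling, the variance model, a replicate block, rebuilt reads and each sample left out.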

Additional observations from a re-analysis of the deposited data

How the results depend on the processing

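With 3 samples a group, the number of genes called hung on single libraries: it was 5 with all samples and 2 to 1733 with 1 sample left out, the highest without KO replicate 3. It was 3 with a pseudocount of 1, 3 with no filter on low values, 14 with no mean-variance trend and 1 with limma-voom on rebuilt reads. With the replicate number as a block it was 12, and the block called 0 members and 0 of the 61 other pathway genes. The labels do not say that the numbers pair samples. The deviations of same-numbered KO and WT samples from their group means correlated at 0.132, 0.0665 and 0.331 for replicates 1, 2 and 3. Unlike-numbered samples ran from -0.307 (KO replicate 3 with WT replicate 1) to 0.267 (KO replicate 2 with WT replicate 1). The latter was above the values of replicates 1 and 2, so pairing did not show in every pair. Leaving out 1 sample gave 0 to 8 of the 61 other genes called and 6 to 22 at an unadjusted p under 0.05, against 10 with all samples, and 8 to 9 of the 9 tested members above 0. Without the mean-variance trend, Nqo1 was the only member among the 14 genes called of 12654. Since the members were chosen on this contrast, nothing is read from this call. Scaling each sample by its median ratio to the gene means changed little, with factors of 0.992 to 1.010. It put the median over all tested genes at 0.02 (log2), Nqo1 at 1.93 and Gclm at 0.44. Rescaling each sample to the same FPKM total put the median over all tested genes at -0.20 (log2), against 0.03 as deposited. On that scale Nqo1 was at 1.79, Akr1c12 at 1.38, Akr1c13 at 1.02, Hmox1 at 0.80, Txnrd1 at 0.30, Gclm at 0.20, Gclc at 0.05, Nfe2l2 at -0.14 and Keap1 at -0.27, and the share of genes with an unadjusted p under 0.05 that were higher in KO was 22.9%, against 52.9% as deposited. The sign of the other 7 tested members was the same in all 15 alternatives. Low counts limit Nqo1, Hmox1 and Srxn1 most. The causes of these shifts were not tested.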
